A study of Mus musculus with 33 samples.

Results

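The transcripts followed here encode subunits of respiratory complex I, the NADH dehydrogenase of the mitochondrial inner membrane. They were chosen by gene symbol alone, as every symbol made of Nduf, one of the letters a, b, c, s or v and a number, with entries ending in -ps left out. This rule found 37 of the 32245 gene rows that each of 3 expression tables holds, and it used no measured value. RNA labelled as coming from mouse cardiomyocytes was depleted of ribosomal RNA and sequenced in lines that lack Ptpmt1, a mitochondrial phosphatase of cardiolipin synthesis. The table of the Eif2a line (FST in the sample names) held 3 control, 3 Eif2a mutant only, 3 Ptpmt1 knockout only and 3 double mutant libraries. The table of the Hri line (PHT) held 2 control, 2 Hri knockout only, 3 Ptpmt1 knockout only and 2 double knockout libraries, and that of the Gcn2 line (PTGC) held 3 control and 3 Ptpmt1 and Gcn2 double knockout libraries.

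The Ptpmt1 deletion is labelled as specific to cardiomyocytes in every group that carries it, and so is the deletion in the Hri-only group, whereas the Eif2a mutation, the Gcn2 knockout and Hri in the double knockout are labelled without a cell type. The labels used here name neither the promoter behind the deletion nor the Eif2a allele, the age of the mice or more of the controls than the word Control. The labels give each sample its own identifier and do not say that samples of a group came from separate animals, so the p-values measure the spread between these samples, which may be technical. The Gcn2 line has no single knockout among the libraries, so the parts of the Ptpmt1 and Gcn2 deletions cannot be told apart there. The 6 samples of another line were not analysed here.

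Complex I takes electrons from NADH, passes them through flavin and iron-sulfur centres to ubiquinone, and couples this to pumping protons across the inner membrane. It has the shape of an L: the matrix arm consists of the N module, which binds NADH, and the Q module, which reduces ubiquinone, and the membrane arm is divided into a proximal and a distal part. The core of the membrane arm is encoded by the mitochondrial mt-Nd genes, and all other subunits come from the nucleus. The labels write both Eif2a and Eif2alpha for the mutated gene and give no gene identifier. The alpha subunit of the initiation factor eIF2, whose gene symbol is Eif2s1, is what the kinases Hri and Gcn2 phosphorylate in the integrated stress response. By textbook role, 7 of the 37 genes encode core subunits, Ndufs3 and Ndufv2 among them. By position, 10 belong to the N module, 6 to the Q module, 9 to the proximal and 10 to the distal membrane arm. The other two, Ndufa4 and its paralogue Ndufa4l2, keep the family name, although Ndufa4 is now assigned to cytochrome oxidase (complex IV). The rule leaves out Ndufab1, the acyl carrier protein of the complex, because its symbol has another form.

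Several members have near copies elsewhere in the genome, and that of Ndufs5, one of the most variable members, is shown. Ndufs5, a small subunit of the proximal arm, lies on GRCm38 at chr4:123712710-123718202 (minus strand), and over 319 bases of its transcript the gene BC002163, at chr16:42955631-42955949 (plus strand), was 99.4% identical in the GENCODE M21 transcripts. The stretch from base 33 to base 152 of the coding sequence is shown because both differences fall in it, and they are in capitals.
Ndufs5: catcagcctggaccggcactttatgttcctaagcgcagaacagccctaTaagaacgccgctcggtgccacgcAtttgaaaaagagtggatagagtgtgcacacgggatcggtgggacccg
BC002163: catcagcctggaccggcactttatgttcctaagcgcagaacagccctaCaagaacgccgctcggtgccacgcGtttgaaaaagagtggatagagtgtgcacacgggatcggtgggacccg
Counted from 1 at the first coding base, with the base of Ndufs5 first, the differences are T81C and A105G. A read that lies wholly within the 319 matching bases and covers neither difference does not separate the genes. The match covers 319 of the 680 bases of the Ndufs5 transcript. Copies of at least 100 bases at 95% identity or more also existed elsewhere for Ndufb4 (Ndufb4c, 100% over 390 bases), Ndufs3 (Gm12251, 98.6% over 792 bases), Ndufs6 (Ndufs6b, 96.6% over 348 bases), Ndufa12, Ndufb3, Ndufb11 and, over short stretches only, Ndufc1. The sources do not say how reads that match both copies were counted, so values of these genes are uncertain to that extent.

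The promoters of the members were searched for motifs of known regulators of respiratory genes. Of the 37 genes, 32 were matched to RefSeq promoter windows of 300 bases (250 before and 50 after the start, GRCm38.p6), searched on both strands. The NRF1 palindrome, shown in capitals in the Ndufa11 sequence at the end of the paragraph, was also searched with any base at its 2 middle positions. This open form occurred in 8 of the 32 (25.0%) and in 6.43% of all 27025 windows. The full palindrome, which is one case of the open form, occurred in Ndufa11 alone and in 0.977% of all windows. The YY1 motif AAGATGGCG occurred in 5 members (15.6%, against 1.49% of all windows) and the ETS motif CCGGAAG in 4 (12.5%, against 9.12%). The ERR motif TCAAGGTCA and the C/EBP-ATF composite motif TGATGNAA, at which ATF4 of the stress response binds, were found in none of the 32, with shares of 0.407% and 4.06% over all windows. The median GC content of the members' windows was 59.0%, against 52.7% over all windows. The part of GC content in the motif shares was not tested. A match describes the letters only. The windows of Ndufa11 and Ndufs5 are shown around the match, in capitals, because these 2 genes were among the 4 with the smallest p in the Ptpmt1 knockout of the Eif2a line. The Ndufa11 match starts 60 bases before the RefSeq start of its window (stretch shown: chr17:56717672-56717741, plus strand). That of Ndufs5 starts 98 bases before its RefSeq start (stretch shown: chr4:123718245-123718314, minus strand). For Ndufs5 the RefSeq start differs from the gene end position given above.
Ndufa11: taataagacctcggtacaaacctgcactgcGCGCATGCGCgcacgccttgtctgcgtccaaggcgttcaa
Ndufs5: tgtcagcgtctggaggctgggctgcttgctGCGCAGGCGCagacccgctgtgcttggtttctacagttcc

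Across the 27 libraries, 1887978 to 19405261 reads were recovered from the normalized values, of which 5531 to 64048 came from the 37 genes. Double mutant 2 of the Eif2a line was by far the shallowest library, and Eif2a mutant 1 had the fewest genes with reads (15157). Ptpmt1 itself, as the check of the labels, was lower in each knockout and double group than in its control (adjusted p from 3.90e-06 to 0.0136, limma), for example 35.5 ± 4.71 (SD, n = 3) normalized counts in the knockouts and 163 ± 10.3 (SD, n = 3) in the controls of the Eif2a line. Cardiomyocyte markers made up 5.19% to 8.20% of the signal of each library, fibroblast markers 0.0999% to 0.230%, endothelial markers 0.0871% to 0.118% and erythroid genes 0.0643% to 0.782%. In such bulk libraries, fewer cells of a type and less RNA per cell cannot be told apart. Libraries with the expression pattern of males numbered 1 of 3 controls, 3 of 3 Eif2a mutants, 3 of 3 knockouts and 2 of 3 doubles in the Eif2a line, 0 of 2, 2 of 2 Hri knockouts, 1 of 3 knockouts and 2 of 2 doubles in the Hri line, and 2 of 3 in each group of the Gcn2 line.

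All 37 genes were detected and passed the filter on low values, a normalized count of 10 in a number of libraries equal to the smallest group's size. Per kilobase of spliced transcript, Ndufb8 of the distal arm was highest in the controls of the Eif2a line (1983 normalized counts per kb) and of the Hri line (2706 per kb). Ndufa4 was highest in the controls of the Gcn2 line (3526 per kb), ahead of Ndufb8 (3409 per kb). Ndufa4l2 was lowest everywhere, with 13.9, 37.6 and 33.1 per kb in the controls of the Eif2a, Hri and Gcn2 lines. The median gene stood at 696, 1012 and 1214 per kb. The tables were normalized separately, so the order within a table can be read and the levels between tables cannot.

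**Figure D1:**
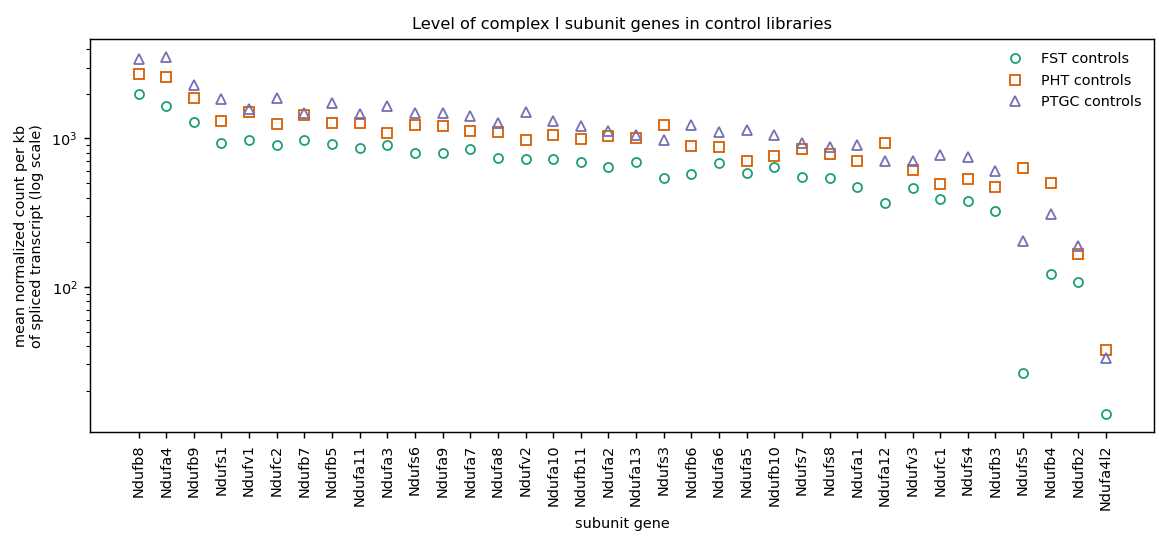
Mean normalized count per kilobase of spliced transcript (log scale) of 36 of the genes in the control libraries of the 3 tables, ordered by mean rank. Most genes lie within a narrow band around the medians of 696, 1012 and 1214 per kb, and Ndufa4l2 is lowest in each table.

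Most members varied little between libraries. The coefficient of variation over all 12 libraries of the Eif2a line was 66.5% for Ndufa4l2, 60.9% for Ndufs5 and 26.5% for Ndufb4, and 4.23% to 17.0% for the other 34 genes. These 34 genes varied by 3.82% to 15.8% in the Hri line and by 3.65% to 19.0% in the Gcn2 line.

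**Figure D2:**
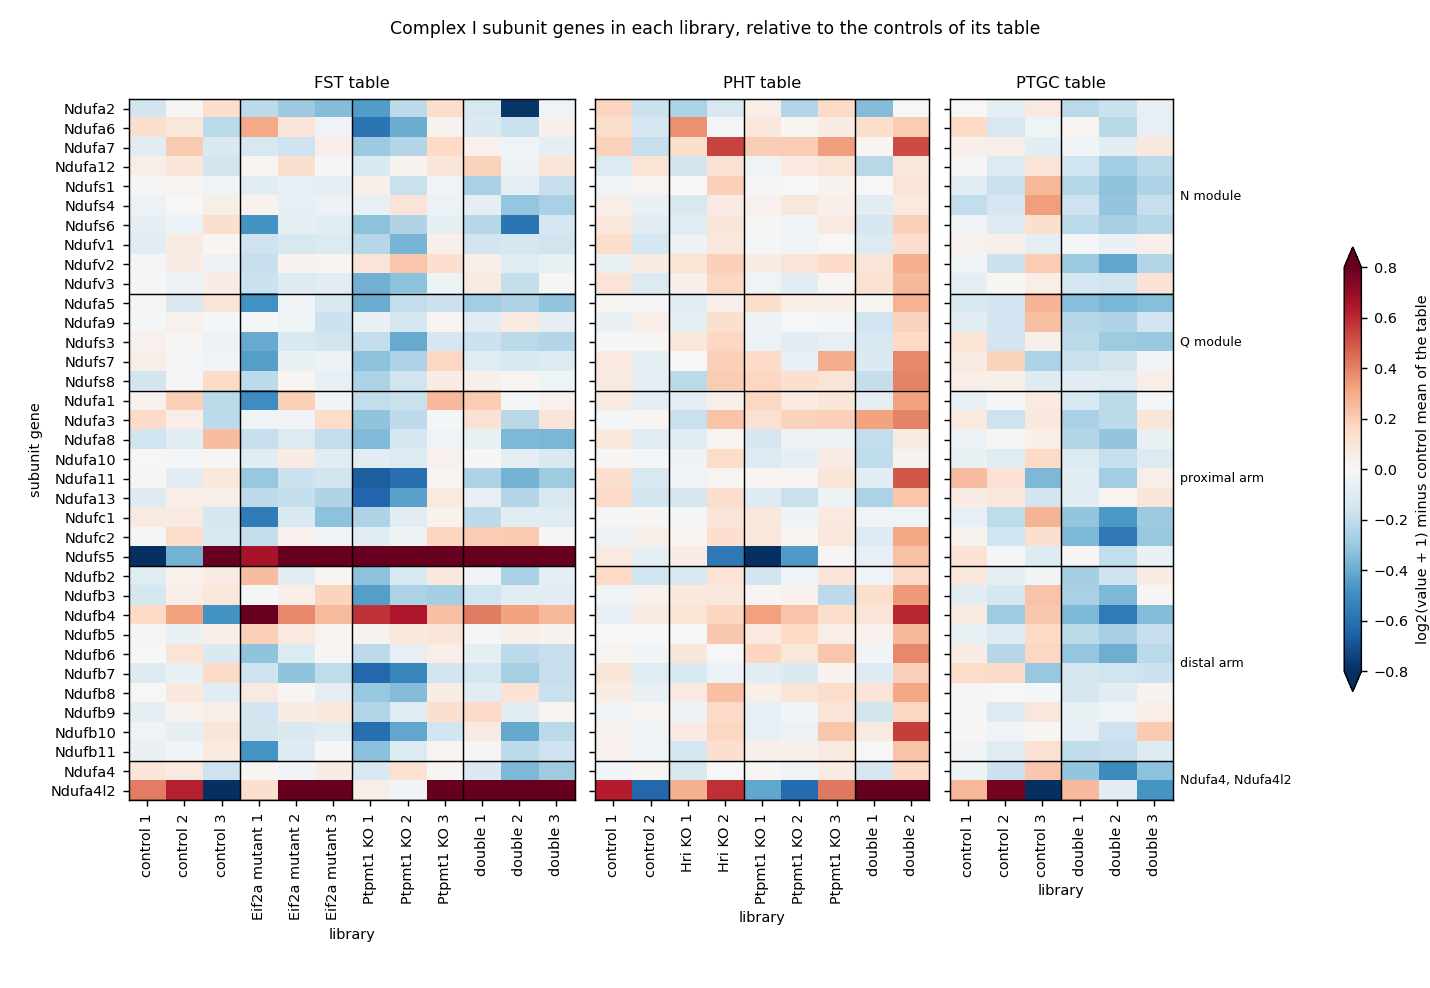
Difference of log2(value + 1) of each of 36 genes (rows, by module) from the control mean of its table, in each of the 27 libraries (columns); the colour scale ends at 0.8 in each direction. Blue columns in Ptpmt1 KO 1 and 2 of the FST table and in the doubles of the PTGC table contrast with a red column in double 2 of the PHT table, and the rows of Ndufs5 and Ndufa4l2 exceed the scale.

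Loss of Ptpmt1 in the Eif2a line was compared with control first. No subunit passed the test in this comparison (0 of 37 at an adjusted p below 0.05, limma, while 0.504% of the 13896 genes tested passed). At unadjusted p below 0.05, 10 members were lower and 1 was higher, against 6.79% and 6.6% of all genes. The median log2 fold change of the 37 was -0.12, against -0.01 over all genes, and 30 of the 37 were negative. The median was -0.04 without knockout 1, when 26 of the 37 were negative, and -0.23 without knockout 3. edgeR on the recovered reads called 0 members (0.662% of all genes), and DESeq2 called 1, Ndufb7 (2.34% of all genes), and gave 4 members no adjusted p. Groups did not overlap for 5 members that were lower (Ndufa5, Ndufb3, Ndufb7, Ndufb10 and Ndufs3; 9.48% of all genes) and for 1 that was higher (Ndufv2; 9.61%).

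In the N module of this comparison, Ndufv3, an accessory subunit beside the flavin site, measured 723, 709 and 763 normalized counts in controls and 559, 583 and 710.5 in the knockouts, so knockout 3 reached the control range. Its log2 fold change was -0.25 ± 0.10 (SE, adjusted p = 0.291, limma). Ndufv2, a core iron-sulfur subunit, measured 1216, 1282 and 1193 in controls and 1321, 1434 and 1350.3 in the knockouts. All knockouts were above all controls, and the log2 fold change was 0.15 ± 0.08 (SE, adjusted p = 0.429). The median of the 10 N module genes was -0.15, with 9 negative.

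In the Q module, the core subunit Ndufs3 measured 579, 570.2 and 548 in controls and 496, 427 and 515 in the knockouts, with a log2 fold change of -0.24 ± 0.10 (SE, adjusted p = 0.304, limma). Ndufs3 lies on chromosome 2 beside the deleted gene, with 3888 bases between it and Ptpmt1, and one of its exons overlaps Kbtbd4 on the other strand. Kbtbd4 stood at 184 ± 10.3 (SD, n = 3) in controls and 191 ± 6.82 (SD, n = 3) in the knockouts. The accessory subunit Ndufa5 measured 517, 474 and 549 in controls and 388, 447 and 454 in the knockouts, again without overlap. All 6 genes of the module were negative, with a median of -0.17.

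In the proximal membrane arm, Ndufa11 measured 474, 441 and 498 in controls and 298, 309 and 478 in the knockouts. Knockouts 1 and 2 were low and knockout 3 was within the controls, and the log2 fold change was -0.41 ± 0.14 (SE, adjusted p = 0.224, limma). Ndufs5 went the other way, with 5.76, 9.97 and 38.2 in controls and 31.0, 37.9 and 78.9 in the knockouts. Control 3 overlapped the knockouts, and the log2 fold change was 1.70 ± 0.57 (SE, adjusted p = 0.209). The median of the 9 genes was -0.10.

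In the distal arm, Ndufb7 measured 564, 585 and 675 in controls and 392, 423 and 546 in the knockouts. Its log2 fold change of -0.43 ± 0.12 (SE, adjusted p = 0.127, limma) had the smallest p of the 37, and in DESeq2 it was -0.42 with an adjusted p of 0.0323, so that its call depended on the test. Ndufb10 measured 462, 449 and 503 in controls and 309, 353 and 424 in the knockouts (-0.39 ± 0.13, SE, adjusted p = 0.207, limma). Ndufb3 measured 225, 258 and 265 in controls and 183, 208 and 206 in the knockouts. These 3 small subunits were lower in all knockouts than in all controls. The median of the 10 genes was -0.13, with 8 negative.

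**Figure D3:**
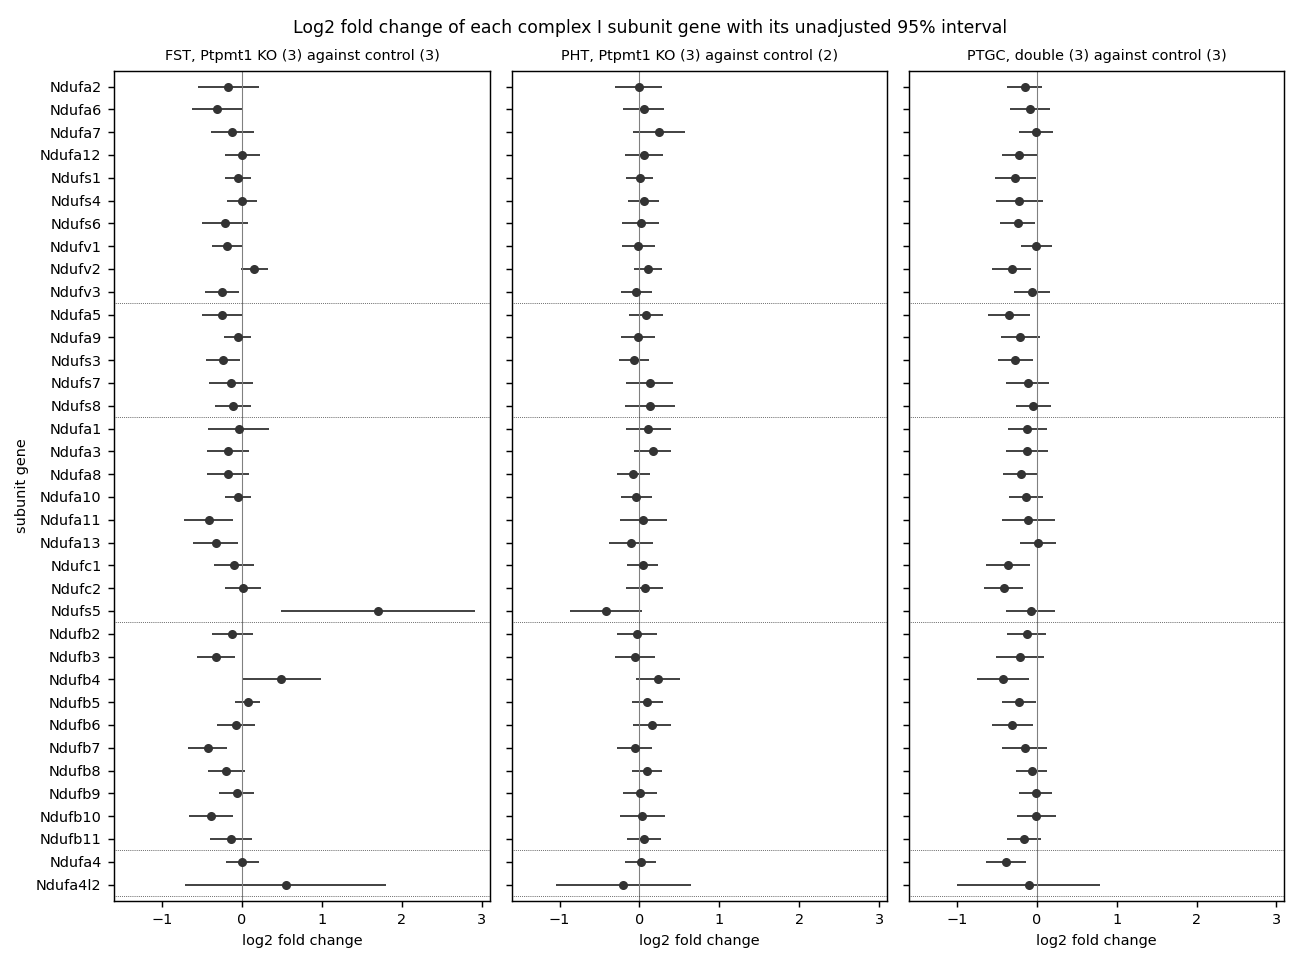
Log2 fold change of each of 36 genes with its unadjusted 95% interval (limma), for the Ptpmt1 knockout in the FST and PHT tables and the double knockout in the PTGC table; dotted lines separate the modules. Points lie mostly left of 0 in the FST and PTGC panels and on both sides of 0 in the PHT panel, and Ndufs5 and Ndufa4l2 have the widest intervals in the FST panel.

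The 3 knockouts of the Eif2a line differed from each other. Relative to the control mean, the median of the 37 genes was -0.25 in knockout 1, -0.18 in knockout 2 and 0.03 in knockout 3. In knockouts 1 and 2, 27 and 23 members lay below every control (32.4% and 33.8% of all genes did), and in knockout 3 only 6 did (28.8%), while 12 lay above every control (29.9%). Without knockout 3, limma called 8 members, all lower (3.17% of all genes were called lower). Among them were Ndufa11 (-0.63), Ndufb7 (-0.57), Ndufa13 (-0.54), Ndufb10 (-0.51), Ndufa6 (-0.49), Ndufv3 (-0.36) and Ndufv1 (-0.30), with adjusted p from 0.00387 to 0.0428. The 43 subunit genes of complexes II to V showed the same split, with medians of -0.31, -0.31 and -0.01 in knockouts 1, 2 and 3. Erythroid genes made up 0.0643%, 0.0714% and 0.224% of the signal in these libraries and fibroblast markers 0.124%, 0.127% and 0.230%, against 0.0691% to 0.277% and 0.122% to 0.134% in the controls. All 10 erythroid genes were negative in the knockouts (median -0.63), and of 10 cardiomyocyte markers 9 were negative, with a median of -0.31, and 5 were lower at unadjusted p below 0.05. The part of these in the result was not tested. With a term for sex in the fit, the median of the 37 was -0.05 in place of -0.12, and 25 members in place of 30 were negative.

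**Figure D4:**
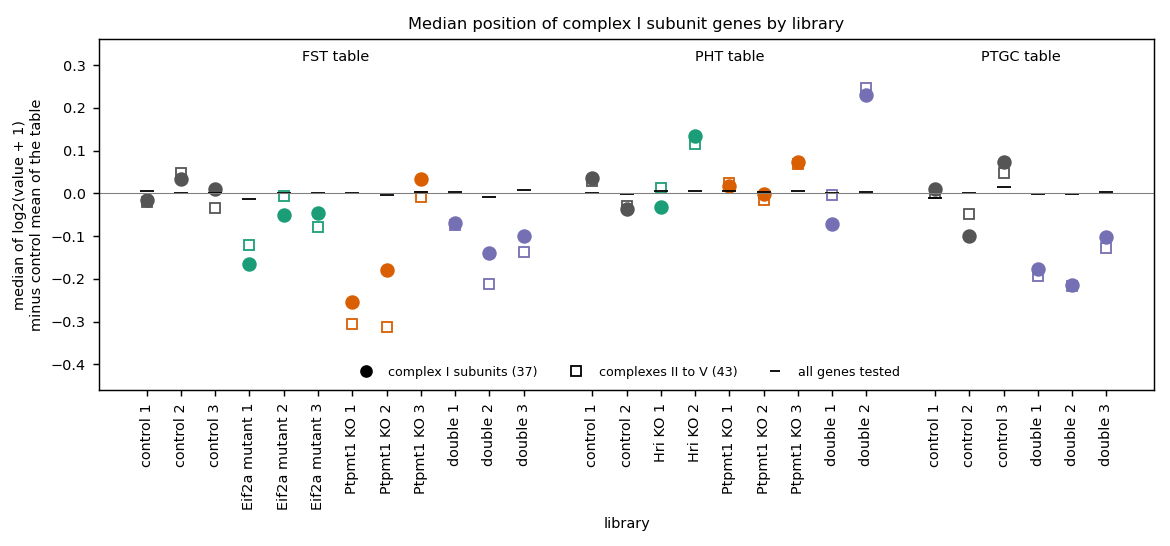
Median difference of log2(value + 1) from the control mean of the table, in each library, for the 37 complex I subunit genes (filled circles), the 43 genes of complexes II to V (open squares) and all genes tested (dashes); grey marks controls, green the Eif2a mutant or Hri knockout, orange the Ptpmt1 knockout and purple the double. The values are -0.25, -0.18 and 0.03 for the complex I genes in the FST knockouts, -0.07 and 0.23 in the PHT doubles and -0.18, -0.21 and -0.10 in the PTGC doubles, and the squares lie near the circles in most libraries.

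With the Eif2a mutation alone, no member passed the test (0 of 37, limma, against 0.036% of all genes). At unadjusted p below 0.05, 3 were higher and 2 lower (4.12% and 3.85% of all genes), and edgeR and DESeq2 both called 0. The median log2 fold change was -0.08, and -0.01 with a term for sex, which left 21 of the 37 negative in place of 26. Ndufc1, a small subunit of the proximal arm, had the smallest p. It measured 514, 514 and 444 in controls and 332, 449 and 389 in the mutants, so mutant 2 overlapped the controls (-0.34 ± 0.12, SE, adjusted p = 0.484, limma). Ndufs5 followed, with 21.6, 30.9 and 82.9 in the mutants (1.46 ± 0.57, SE, adjusted p = 0.549). Groups did not overlap for 11 members that were lower (7.96% of all genes), among them the core subunits Ndufs1, Ndufs3, Ndufs7 and Ndufv1, and for none that was higher (8.37%).

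In the double mutant of the Eif2a line against control, 0 of 37 passed (limma and also edgeR and DESeq2; 0.144% of all genes passed in limma), with 2 higher and 6 lower at unadjusted p below 0.05 (4.69% and 5.41% of all genes). The median was -0.11. Ndufs4, an accessory subunit of the N module, measured 628, 646 and 670.5 in controls and 614, 522 and 542 in the doubles (-0.22 ± 0.09, SE, adjusted p = 0.417, limma). Every double lay below every control. Ndufa4 measured 1075, 1054 and 893 in controls and 925, 782 and 823 in the doubles (-0.25 ± 0.10, SE, adjusted p = 0.382), where double 1 overlapped control 3. Groups did not overlap for 10 members that were lower (9.87% of all genes) and for Ndufs5 and Ndufa4l2, which were higher (9.64%). In the same comparison all 6 nuclear-retained RNAs were positive (median 0.39, with Meg3 called higher, 0.50 ± 0.09, SE, adjusted p = 0.0332), all 10 erythroid genes were negative (median -0.78) and cardiomyocyte markers had a median of -0.19. Their part in the result was not tested.

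Against the Ptpmt1 knockout, the double mutant of this line gave 0 called members in all 3 tests (0.878% of all genes passed in limma), with a median of 0.03 and 1 higher and 3 lower at unadjusted p below 0.05 (6.76% and 7.02% of all genes). Ndufa4 had the smallest p, with 924, 1091 and 1013 in the knockouts (-0.26 ± 0.10, SE, adjusted p = 0.232, limma), followed by Ndufs4, with 622, 694 and 627 in the knockouts (-0.21 ± 0.09, SE, adjusted p = 0.289). Knockout 3 again carried weight: without it, Ndufa13 of the proximal arm was called higher in the double (0.39 ± 0.09, SE, adjusted p = 0.0373; 1.32% of all genes were called higher) and the median was 0.15. Against the Eif2a mutant, 0 of 37 passed in limma (0.0072% of all genes) and in edgeR, and 0 in DESeq2, which gave 5 members no adjusted p, with 0 higher and 2 lower at unadjusted p below 0.05, Ndufa4 and Ndufs4 (3.89% and 4.25% of all genes). The interaction, which asks whether the effect of Ptpmt1 loss differs with the Eif2a mutation, called 0 members in limma, edgeR and DESeq2 (0.0216% of all genes in limma). At unadjusted p below 0.05, 2 members were higher and 1 lower (3.32% and 3.73% of all genes). The median of the interaction was 0.14, with 28 of the 37 positive. Without knockout 3 it was 0.26, with 30 of the 37 positive. With a term for sex it was 0.08, with 24 of the 37 positive. Ndufb7 had the smallest p (0.46 ± 0.17, SE, adjusted p = 0.62, limma): it measured 540.4, 486 and 526 in the mutants and 549, 504 and 533 in the doubles, values close to each other. Ndufv3 followed (0.34 ± 0.14, SE, adjusted p = 0.683).

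In the Hri line, loss of Ptpmt1 left the subunits near control. No member passed (0 of 37 in limma, edgeR and DESeq2; 0.301% of all genes passed in limma), and none reached an unadjusted p below 0.05 in limma (2.69% of all genes were higher and 2.1% lower). The median was 0.04, and 24 of the 37 were positive. In the N module, Ndufa7 measured 674 and 520.0 in controls and 679, 681 and 747 in the knockouts (0.25 ± 0.15, SE, adjusted p = 0.999, limma). In the proximal arm, Ndufa3 measured 557 and 569 in controls and 612, 641 and 641 in the knockouts (0.16 ± 0.11, SE), and Ndufs5 measured 452 and 409 in controls and 243, 314 and 433 in the knockouts (-0.42 ± 0.21, SE). In the distal arm, Ndufb4 measured 461 and 506 in controls and 607, 565 and 532 in the knockouts (0.23 ± 0.13, SE). Ndufa3, Ndufa7 and Ndufb4 were among 9 members whose knockouts all lay above both controls (12.0% of all genes). Ndufs3 was the only member whose knockouts all lay below them (11.6%), with 1276 and 1293 in controls and 1244, 1210.1 and 1226 in the knockouts.

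The precision in this comparison was enough to bound the changes. The unadjusted 95% interval of the log2 fold change stayed within 1.5-fold in both directions for 35 of the 37 genes and within 2-fold for 36, the exception to the latter being Ndufa4l2. In the Eif2a line the interval of the knockout effect stayed within 1.5-fold for 29 genes and within 2-fold for 35, and Ndufa4l2 and Ndufs5 were the wider ones. Only 2 members had groups that did not overlap in the same direction in the knockouts of both lines, Ndufs3 (lower) and Ndufv2 (higher), where 4.92% of the 13873 genes tested in both tables did. Ndufv2 measured 1583 and 1718 in controls and 1722, 1773 and 1835 in the knockouts of the Hri line. A test of the difference between the lines was not run.

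Loss of Hri alone gave 0 called members in limma, edgeR and DESeq2 (0.02% of all genes in limma) and none at unadjusted p below 0.05 in limma (1.91% of all genes were higher and 1.33% lower), with a median of 0.04. That median was 0.13 without Hri knockout 1 and -0.03 without Hri knockout 2, so its sign rested on 1 library. Ndufa7 had the smallest p, with 653 and 860.5 in the Hri knockouts (0.34 ± 0.17, SE, adjusted p = 0.9998, limma), so that one of them lay within the controls and the other above. Ndufv2 followed, with 1782 and 1878 in the Hri knockouts, both above both controls (0.15 ± 0.09, SE). Groups did not overlap for 7 members, all higher (15.0% of all genes).

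The double knockout of the Hri line against control gave 0 called members in all 3 tests (0.0267% of all genes in limma), with 5 higher and 0 lower at unadjusted p below 0.05 (3.09% of all genes were higher and 3.48% lower). The median was 0.10. The male pattern was found in 0 of 2 controls and 2 of 2 doubles. With a term for sex in the fit, the median was 0.09. Only the Ptpmt1 knockouts of this line held both sex patterns, so that term rested on them. Sex and genotype therefore cannot be told apart in this comparison. Ndufa3 measured 705 and 741 in the doubles, above all other libraries of the table (0.36 ± 0.12, SE, adjusted p = 0.699, limma). Ndufb8, in the distal arm, measured 1914 and 1766 in controls and 1974 and 2278 in the doubles (0.21 ± 0.10, SE, adjusted p = 0.755). Ndufb4 measured 519 and 735 in the doubles (0.36 ± 0.14, SE, adjusted p = 0.725). The 2 doubles differed: the median of the 37 was -0.07 in double 1, with 19 members below both controls (35.0% of all genes), and 0.23 in double 2, with 31 above both (37.4%). Leaving out double 1 gave a median of 0.23 and leaving out double 2 gave -0.07, so the sign of the median rested on double 2. Erythroid genes made up 0.451% of the signal in double 1 and 0.782% in double 2, nuclear-retained RNAs 1.14% and 0.898%, and the medians of complexes II to V were -0.0039 and 0.25. The part of these in the result was not tested.

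Against the Ptpmt1 knockout, the Hri double gave 0 called members in all 3 tests (0.327% of all genes in limma), with 4 higher and 0 lower at unadjusted p below 0.05 (3.84% and 4.45% of all genes). Ndufb3 measured 364, 368 and 312 in the knockouts and 397 and 457 in the doubles, without overlap (0.29 ± 0.12, SE, adjusted p = 0.489, limma). The median was 0.05, and -0.12 without double 2. Against the Hri knockout, 0 of 37 passed in all 3 tests (0.02% of all genes in limma) and 1 was higher at unadjusted p below 0.05, Ndufa3 (498 and 658 in the Hri knockouts; 0.34 ± 0.12, SE, adjusted p = 0.779; 2.6% of all genes were higher and 3.23% lower). The interaction called 0 members in all 3 tests (0.12% of all genes in limma), with 1 higher at unadjusted p below 0.05, Ndufs5 (0.76 ± 0.31, SE, adjusted p = 0.998; 1.95% of all genes were higher and 2.69% lower), followed by Ndufa4l2 (0.90 ± 0.58, SE), and its median was 0.00. Without double 1 that median was 0.18, and without double 2 it was -0.15.

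The most even shift was found in the Gcn2 line, where 36 of the 37 genes were lower in the double knockout than in control. No single member passed the test (0 of 37 in limma, edgeR and DESeq2; 0.743% of all genes passed in limma and 0.736% in edgeR), and 11 were lower and 0 higher at unadjusted p below 0.05, against 5.8% and 5.71% of all genes. The median log2 fold change was -0.15, against 0.00 over all genes, and it lay between -0.12 and -0.19 in the 4 structural modules. Groups did not overlap for 16 members, all lower, where 9.05% of all genes did so. Ndufa13 was the only positive member, at 0.01.

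In the N module of this comparison, Ndufv2 measured 2505, 2275 and 2954 in controls and 2082, 1924 and 2179.5 in the doubles (-0.32 ± 0.11, SE, adjusted p = 0.348, limma). In the Q module, Ndufa5 measured 899.7, 887 and 1187 in controls and 774, 761 and 776 in the doubles (-0.35 ± 0.12, SE, adjusted p = 0.343), and Ndufs3 measured 1091, 914 and 1041 in controls and 874, 831 and 819.6 in the doubles (-0.27 ± 0.10, SE, adjusted p = 0.377). For these 3 genes every double was lower than every control. In the proximal arm, Ndufc2 measured 1305, 1150.0 and 1404 in controls and 999, 862 and 1038 in the doubles, with the smallest p of the 37 (-0.41 ± 0.11, SE, adjusted p = 0.204). In the distal arm, Ndufb4 measured 313, 245 and 346 in controls and 232, 201 and 234 in the doubles (-0.42 ± 0.15, SE, adjusted p = 0.343), while the abundant Ndufb8 was nearly level, with 2337, 2319 and 2298 in controls and 2114, 2183 and 2366 in the doubles (-0.06 ± 0.09, SE). Ndufa4 measured 2081, 1893 and 2478 in controls and 1720.1, 1502 and 1706 in the doubles (-0.38 ± 0.11, SE, adjusted p = 0.272).

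The controls of the Gcn2 line also differed from each other. Relative to their mean, the medians of the 37 genes were 0.01, -0.10 and 0.07 in controls 1 to 3, and -0.18, -0.21 and -0.10 in the doubles. Double 3 and control 2 thus stood about level. Without control 2, limma called 3 members, all lower (1.78% of all genes were called lower): Ndufb4 (-0.57 ± 0.14, SE, adjusted p = 0.0402), Ndufc2 (-0.49 ± 0.11, SE, adjusted p = 0.0343) and Ndufa4 (-0.47 ± 0.11, SE, adjusted p = 0.0415). The 43 genes of complexes II to V had a median of -0.17, with 39 negative. Nuclear-retained RNAs made up 0.773% to 1.17% of the signal in controls and 1.04% to 1.39% in the doubles, and control 3 was lowest. All 10 erythroid genes were negative in the doubles, with a median of -0.77, and 1 was called lower. The part of these in the result was not tested.

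Ndufs5 and Ndufb4 were set against another subunit within each library, because together with Ndufa4l2 they had the largest coefficients of variation in the Eif2a line. In the other lines Ndufs5 varied by 22.4% (Hri) and 7.41% (Gcn2) and Ndufb4 by 14.2% and 21.2%, so that Ndufs5 in the Gcn2 line and Ndufb4 in the Hri line lay within the range of the other 34 genes. Ndufs5 amounted to 1.35% to 25.0% of Ndufs6, another small subunit, in the Eif2a line. In the Hri line the share was 34.3% to 67.9% and in the Gcn2 line 13.9% to 19.1%. Within the Eif2a line it was 1.35%, 2.29% and 7.76% in the controls, 6.67%, 7.24% and 19.6% in the mutants, 8.67%, 9.93% and 18.4% in the knockouts and 18.6%, 25.0% and 18.0% in the doubles. The doubles were thus above all controls and control 3 above the other two. Ndufs6 itself was lower in every double than in every control, with 426, 436 and 493 in controls and 384, 301 and 409.8 in the doubles, so that the high share in double 2 came with the lowest Ndufs6. Ndufs5 had the largest log2 fold change of the double against control, 2.38 ± 0.57 (SE, adjusted p = 0.148, limma), with 71.6, 75.1 and 73.8 normalized counts in the doubles. Without control 3 it was called, at 3.11 ± 0.50 (SE, adjusted p = 0.0218; 0.108% of all genes were called higher). In the Gcn2 line Ndufs5 measured 149.7, 137 and 128 in controls and 139, 120.5 and 133 in the doubles, a log2 fold change of -0.08 ± 0.14 (SE). The parts of the near copies of Ndufs5 and Ndufs6 in these values were not tested.

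Ndufb4 amounted to 8.18% to 22.8% of Ndufb5 in the Eif2a line, 33.6% to 44.7% in the Hri line and 13.0% to 17.5% in the Gcn2 line. Both genes encode small subunits of the distal arm. The Hri line thus stood apart for Ndufb4 as it did for Ndufs5, in controls and in mutants alike. The part of the near copies of Ndufb4 in these values was not tested.

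Ndufa4l2, known as a target of hypoxia-inducible factor, was the least abundant member. It measured 15.6, 18.3 and 5.15 in the controls, 12.7, 44.2 and 53.5 in the Eif2a mutants, 11.9, 11.4 and 37.2 in the knockouts and 35.8, 30.9 and 64.4 in the doubles of the Eif2a line. All doubles were above all controls (1.76 ± 0.59, SE, adjusted p = 0.323, limma). In the Hri line it measured 49.9 and 20.3 in the controls, 39.1 and 48.3 in the Hri knockouts, 23.7, 20.5 and 43 in the Ptpmt1 knockouts and 75.7 and 66.7 in the doubles. Both doubles were above all other libraries, with a log2 fold change of 1.13 ± 0.43 against control (SE, adjusted p = 0.707) and 1.33 ± 0.39 against the Ptpmt1 knockout (SE, adjusted p = 0.287). In the Gcn2 line it measured 32.9, 47.0 and 12.8 in controls and 32.7, 25.5 and 19.3 in the doubles, which overlapped (-0.10 ± 0.41, SE). An exon of Ndufa4l2 overlaps Shmt2, a mitochondrial enzyme of serine metabolism, on the other strand. In the Eif2a line Shmt2 stood at 495 ± 24.2 (SD, n = 3) in controls, 725 ± 36.5 (SD, n = 3) in the Eif2a mutants, 808 ± 313 (SD, n = 3) in the knockouts and 606 ± 15.9 (SD, n = 3) in the doubles. Knockout 3 was the highest of its group for both genes, with 1168 for Shmt2 against 658 and 598. Shmt2 stood at 760 ± 150 (SD, n = 3) in controls and 1942 ± 72.1 (SD, n = 3) in the doubles of the Gcn2 line. In the Hri line it stood at 958 ± 51.4 (SD, n = 2) in controls and 965 ± 17.2 (SD, n = 2) in the Hri knockouts. There it was 1549 ± 159 (SD, n = 3) in the Ptpmt1 knockouts and 783 ± 52.5 (SD, n = 2) in the doubles. The strand setting of the counting is not stated, so reads in the overlap cannot be told apart.

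**Figure D5:**
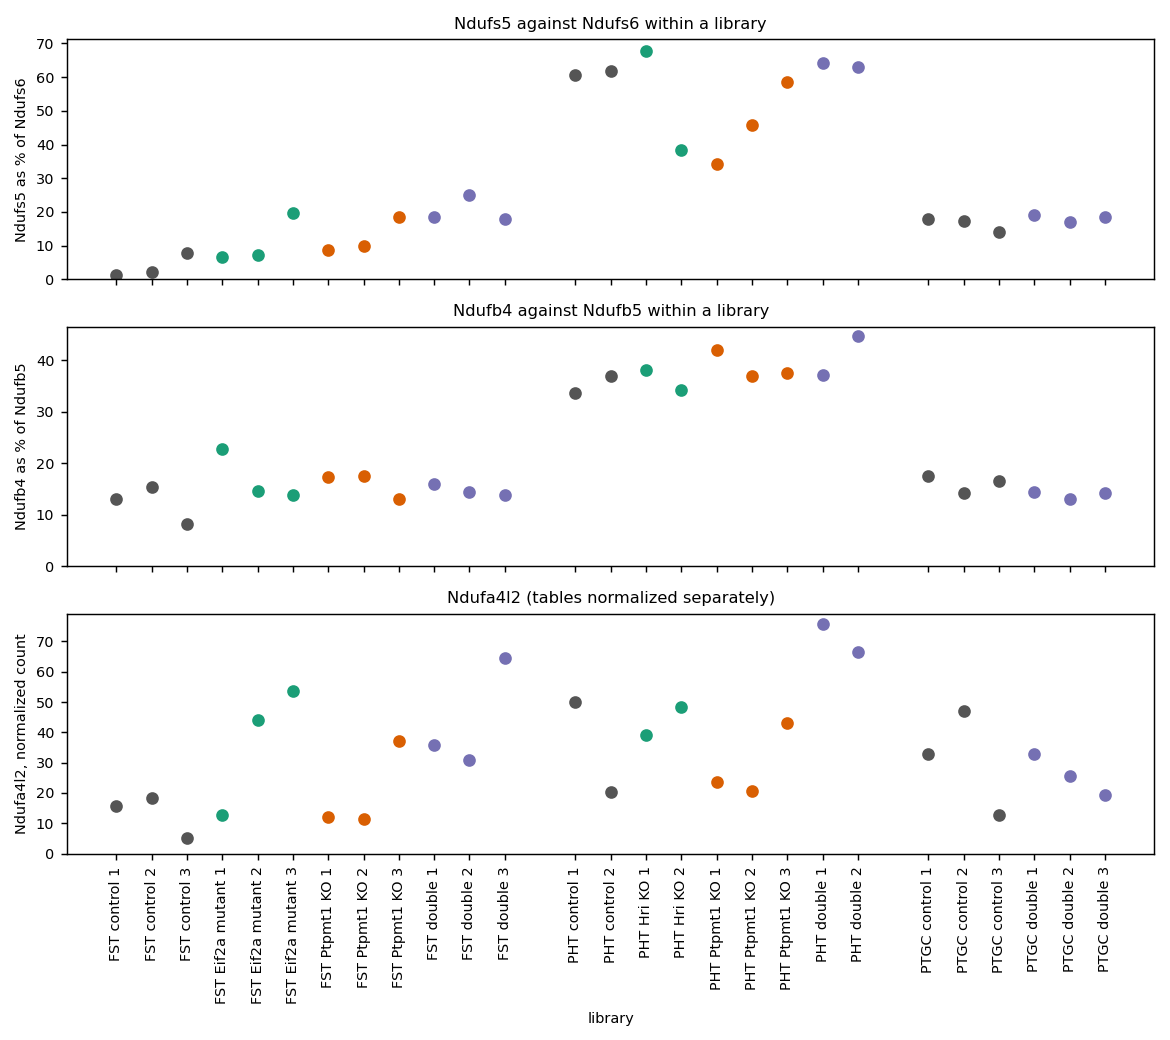
Ndufs5 as percent of Ndufs6 (top), Ndufb4 as percent of Ndufb5 (middle) and normalized count of Ndufa4l2 (bottom) in each of the 27 libraries; grey marks controls, green the Eif2a mutant or Hri knockout, orange the Ptpmt1 knockout and purple the double. Ndufs5 runs from 1.35% to 25.0% in the FST table and from 34.3% to 67.9% in the PHT table, and Ndufa4l2 is highest in the doubles of the PHT table, at 75.7 and 66.7.

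The mitochondrially encoded partners and the assembly factors were examined as the rest of the pathway. Of the 7 mt-Nd genes, 5 passed the filter in the Eif2a and Gcn2 lines and 7 in the Hri line. None was called by limma in the Ptpmt1 knockout or double against control. Their medians were 0.50 in the knockout and 0.45 in the double of the Eif2a line, 0.25 and 0.19 in the Hri line and -0.55 in the Gcn2 line. At unadjusted p below 0.05, 2 of 5 were higher in the knockouts of the Eif2a line (6.6% of all genes). In those of the Hri line 4 of 7 were higher (2.69%), and 3 of 5 were lower in the Gcn2 doubles (5.8%). The smallest p belonged to mt-Nd1 (0.62 ± 0.24, SE, adjusted p = 0.281) in the first of these, mt-Nd2 (0.56 ± 0.12, SE, adjusted p = 0.101) in the second and mt-Nd4 (-0.55 ± 0.18, SE, adjusted p = 0.328) in the last. Control 3 of the Eif2a line carried 0.285% of its signal in mt-Nd genes where controls 1 and 2 carried 0.761% and 0.700%. Knockouts 1 to 3 of that line carried 0.74%, 0.81% and 0.78%, so knockout 1 lay below control 1. Control 3 of the Gcn2 line carried 1.67% where the others carried 1.1% and 0.837%. Of the 18 assembly factors tested, which help to build the complex and leave it, none was called in these 5 comparisons. Ndufaf4 came closest, in the knockouts of the Eif2a line, with a log2 fold change of 0.44 ± 0.10 (SE, adjusted p = 0.0923, limma). In the Gcn2 doubles Tmem70 had the smallest p (-0.34 ± 0.11, SE, adjusted p = 0.309). The medians of the 18 were -0.06, -0.04, 0.00, -0.01 and -0.19 in the same order.

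Other genes set the scale for these values. Of 10 known target genes of the integrated stress response, 9 were called higher in the Ptpmt1 knockout of the Eif2a line, 10 in that of the Hri line and 10 in the Gcn2 double, with median log2 fold changes of 1.84, 1.91 and 2.40. In the Eif2a and Hri doubles limma called 0 of 10 against control, with medians of 0.22 and -0.002. Of all genes it called only 0.144% and 0.0267% there. Of complexes II to V, the heart isoform Cox6a2 of cytochrome oxidase was called higher in the Ptpmt1 knockout of the Hri line (1.25 ± 0.14, SE, adjusted p = 0.000488, limma) and in the Gcn2 double (1.04 ± 0.15, SE, adjusted p = 0.00414), and Atp5k of the ATP synthase was called lower in the Ptpmt1 knockout of the Eif2a line (-0.74 ± 0.14, SE, adjusted p = 0.0232). None of the 37 complex I genes reached the threshold in limma in any of the 13 comparisons.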

How the data were processed

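Per the labels, the libraries were made with a KAPA RiboErase kit, which removes ribosomal RNA. Per the submitters' processing notes, STAR 2.5.3a and DESeq2 1.12.4 were used, with genome build mm10. No source used here names the counter, the annotation or the strand setting. The deposited tables hold a normalized signal per gene, counts scaled by the authors in each table separately. In every library 100% of the values were whole multiples of 1 step (tolerance 0.1 reads), which gave back whole reads for the count tests, so depth was known. The counting error and the spread between 2 or 3 libraries limit precision.

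The tables were fitted whole with limma 3.58.1 (R 4.3.3) on log2(value + 1) with a trend, over all groups of a table, for genes at 10 or more in a number of libraries equal to the smallest group's size (13896, 14965 and 14128 genes). p-values are two-sided and Benjamini-Hochberg adjusted over all genes of the table, with a threshold of 0.05. Fold changes are differences of mean log2(value + 1), and those of low genes depended on the method. The largest among the 37 in the Eif2a double against control was 2.38 in limma, 1.99 in edgeR and 2.02 in DESeq2. In the Ptpmt1 knockout of that line it was 1.70, 1.44 and 1.45. edgeR 4.0.16 (quasi-likelihood) and DESeq2 1.42.0 were run on the recovered reads as alternatives. For the Ptpmt1 knockout of the Eif2a line, edgeR called 92 genes and limma 70, and for the Gcn2 double 104 and 105. The fits were tested on simulated data. Other alternatives were scaling, pseudocount, filter, prior, a sex term, only the groups compared, and leaving out each library. Copies were found with BLAST 2.17.0.

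Values in each library were given for the members with the 4 smallest p in comparisons of a Ptpmt1 knockout or double with control, the 2 smallest in the others, and the highest and lowest per length. One member stays in every fit, count and median, but its own values are not reported here. A few others were named after their values were seen, for groups that did not overlap. The members and lists were chosen with earlier results of these data known. In the tables, 26 gene symbols had been turned into dates and were not used by name.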

Additional observations from a re-analysis of the deposited data

Results flagged for a closer look

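Ndufa5, an accessory subunit of the Q module, was singled out because its knockouts lay on opposite sides of the controls in the 2 lines. In the Eif2a line every Ptpmt1 knockout lay below every control, with a log2 fold change of -0.2559 ± 0.12 (SE, adjusted p = 0.358, limma). In the Hri line every knockout lay above both controls, with a log2 fold change of 0.08 ± 0.10 (SE, adjusted p = 0.999). Neither passed the test, and the difference between the lines was not tested. Among the 13873 genes tested in both tables, 121 (0.872%) had groups that did not overlap in opposite directions.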

How the results depend on the processing

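Over the 13 comparisons, 205 counts of called members were recomputed, and 196 equalled the count of 0 reported. The other 9 were higher. For the Ptpmt1 knockout against control in the Eif2a line, DESeq2 called 1 member, leaving out single libraries gave 0 to 8, and leaving out control 3 and knockout 3 together, an alternative added after seeing the data, gave 7 (6 lower and Ndufs5 higher; 2.92% of all genes were called lower and 2.03% higher). With the same 2 libraries left out, 1 member was called in the Eif2a mutant against control (0.734% of all genes), 1 in the double against control (1.42%) and 2 in the double against the knockout (3.99%). Leaving out single libraries gave 0 to 1 in the double against control, 0 to 1 in the double against the knockout and 0 to 3 in the Gcn2 double. Of 560 values of single members, none reversed and 13 became called. Of 205 medians, 13 moved by more than the spread between replicates, all of them on leaving out knockout 3 of the Eif2a line, alone or with control 3, or 1 of the Hri doubles. The causes were not tested beyond the libraries left out. With 1 library left in a group, it was assumed to vary like the other groups. No paired analysis was possible because the sample names give the groups no shared replicate numbers. The shallowest library held 5531 reads of the 37 genes, so low members such as Ndufs5 and Ndufa4l2 rested on few reads there. The same held in deeper controls of the Eif2a line. Ndufs5 was 5.76 in control 1, where a single read counts as 0.823. Ndufa4l2 was 5.15 in control 3, where a single read counts as 0.735.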
